A study of Mus musculus with 18 samples.

Results

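The 49 genes described here carry a cell through mitosis and cytokinesis, from the kinases that open mitosis to the ring that closes it. They were chosen by symbol from a list, with earlier results of these data known, so the counts below are descriptions of that list. All 49 were present among the 20325 genes of both tables used. RNA-seq had been run on C3H10T1/2, a mouse embryonic cell line of mesenchymal character that can form several connective tissue cell types, and on tumors grown from it. The H3.3 wild-type cells (n = 2), the H3.3K36M cells (n = 2) and the H3.1K36M cells (n = 2) are 3 lines, each with a stably expressed, FLAG-HA-tagged histone; K36M replaces lysine 36 of histone H3 with methionine. The control siRNA cells (n = 3) are parental cells given a scramble siRNA, and the HMT siRNA cells (n = 3) are parental cells given siRNAs to Nsd1, Nsd2 and Setd2, which encode methyltransferases of H3 lysine 36. The H3.3K36M tumors (n = 6) grew from 2000000 H3.3K36M cells placed with Matrigel under the skin of both flanks of female athymic SCID mice aged 6 to 8 weeks, and were taken after 5 to 6 weeks. Cultured cells were at passage 10 to 15. Each histone group is a single line, and parental cells without siRNA were not analysed here. The labels do not say that libraries came from different cultures, or that each tumor had its own mouse. The p-values therefore rest on variation from library to library, which may be technical.

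Mitosis is driven by cyclin-dependent kinase bound to cyclins A and B, which rise before division and are destroyed at its end through the anaphase-promoting complex. Condensins and topoisomerase II compact and untangle the chromosomes, kinetochores attach them to the spindle, the checkpoint holds anaphase back until all are attached, and motors of the central spindle then place the furrow that splits the cell. Most of these genes are transcribed late in the cell cycle, under the control of the DREAM and MMB-FOXM1 complexes. Both complexes are known to act through cell cycle homology region (CHR) elements in promoters, often beside CCAAT boxes bound by NF-Y. In bulk RNA their level follows the share of cells near division as well as the RNA each such cell holds, and these cannot be told apart.

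Because the members moved together in several comparisons, their promoters were searched for both motifs. The letters TTTGAA were taken as a CHR element. So was the variant TTTAAA, which reads the same on either strand. The rarer variant TTCGAA was counted as well. A CCAAT box was its own 5 letters. Both strands were searched, and 1 base could belong to matches of both motifs. The promoter table from RefSeq (build GRCm38.p6, whereas the expression files use mm9) held 46 windows for 43 of the 49 genes, each with 250 bases before and 50 after a start site. A CHR element lay in 40 of the 46 windows (87%), against 28.8% of all 32851 windows of that length, and a CCAAT box in 34 (73.9%), against 37.4%. Both motifs lay in 33 (71.7% against 11.3% of all windows), and 23 held 2 or more CCAAT boxes (50% against 11.7%). TTTGAA was the commonest form, in 76.1% of the member windows against 17.9% of all, while TTTAAA was in 21.7% against 13.2% and TTCGAA in 6.52% against 1.56%. A match is a run of letters and not a measured binding site. The 250 bases before the start are printed for 5 members with both motifs, 5′ to 3′ on the gene's strand, as examples of windows that hold both; capitals mark the matches, which read TTCAAA or ATTGG where the motif lies on the other strand. They lie at chr7:135716380-135716629, minus strand, for Mki67, at chr11:99024190-99024439, minus strand, for Top2a, at chr10:69352913-69353162, minus strand, for Cdk1, at chr13:100786487-100786736, minus strand, for Ccnb1 and at chr7:122159185-122159434, plus strand, for Plk1.
Mki67: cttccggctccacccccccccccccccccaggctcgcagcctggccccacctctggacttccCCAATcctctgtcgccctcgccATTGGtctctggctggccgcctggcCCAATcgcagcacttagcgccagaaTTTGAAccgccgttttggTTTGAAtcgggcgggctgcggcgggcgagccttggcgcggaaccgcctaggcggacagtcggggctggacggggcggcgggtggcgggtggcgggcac
Top2a: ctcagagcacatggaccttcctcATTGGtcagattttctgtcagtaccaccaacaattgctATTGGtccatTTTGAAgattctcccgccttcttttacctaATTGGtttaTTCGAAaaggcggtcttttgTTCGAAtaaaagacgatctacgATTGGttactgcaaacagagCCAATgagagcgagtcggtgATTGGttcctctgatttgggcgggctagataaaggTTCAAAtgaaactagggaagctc
Cdk1: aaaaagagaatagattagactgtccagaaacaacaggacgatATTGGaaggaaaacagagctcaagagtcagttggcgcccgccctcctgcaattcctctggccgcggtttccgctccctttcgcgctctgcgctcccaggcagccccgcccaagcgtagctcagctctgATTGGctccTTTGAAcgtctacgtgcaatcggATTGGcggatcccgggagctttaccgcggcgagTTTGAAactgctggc
Ccnb1: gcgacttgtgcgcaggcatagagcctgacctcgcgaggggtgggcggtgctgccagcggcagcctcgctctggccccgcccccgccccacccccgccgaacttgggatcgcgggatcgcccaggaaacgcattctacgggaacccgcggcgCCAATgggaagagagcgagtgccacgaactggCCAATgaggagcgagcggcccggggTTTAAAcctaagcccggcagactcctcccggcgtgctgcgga
Plk1: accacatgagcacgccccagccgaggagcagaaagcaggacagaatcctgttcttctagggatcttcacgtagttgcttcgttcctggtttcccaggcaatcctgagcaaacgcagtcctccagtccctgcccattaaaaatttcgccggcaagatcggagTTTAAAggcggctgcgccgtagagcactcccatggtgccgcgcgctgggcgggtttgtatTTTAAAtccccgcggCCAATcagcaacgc
In Mki67 the CHR form TTTGAA begins at -116 and -98 from the start site, downstream of 3 CCAAT boxes. Top2a has 6 CCAAT boxes and 4 CHR matches in this window. In Cdk1 TTTGAA begins at -71, just after a CCAAT box on the other strand at -80, and again at -15, where the nearest box is at -48. Ccnb1 has a single CHR match, the form TTTAAA, which begins at -42, and 2 CCAAT boxes. Plk1 has TTTAAA at -89 and -29 and 1 CCAAT box at -14, downstream of both. The order and spacing of the motifs thus differ among the 5 windows.

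Libraries held 13993307 to 56041798 estimated reads, and every member had at least 171 estimated reads in every library. Among genes with 1 to 20 estimated reads, whole values (within 0.005) made up 75.5 to 78% in the 4 libraries of H3.3 wild-type and H3.3K36M cells and 83.6 to 86.1% in the other 14, a difference between sets of libraries that the labels do not explain. Comparisons of either H3.3 line with siRNA cells, H3.1K36M cells or tumors run across it, so it and the group cannot be told apart there. All 15 mesenchymal markers listed passed the filter on low values in each fit, though their levels differed between groups. In H3.3K36M against wild-type cells 5 of them were higher and 7 lower, where 37.5% of all genes tested were higher and 33.3% lower. The siRNA targets checked the labels: Setd2 stood at 1114, 1063 and 1224 in the HMT siRNA libraries and 3225, 3114 and 3401 in the control siRNA libraries, Nsd2 (listed as Whsc1) at 1036, 1019 and 1121 against 1592, 1565 and 1607, and Nsd1 at 3227, 3189 and 3422 against 4770.4, 4392 and 5007.

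The members together took up very different shares of the libraries. They made up 0.238, 0.21 and 0.221% of estimated reads in the control siRNA libraries and 0.55, 0.545 and 0.578% in the HMT siRNA libraries. The share was 0.659 and 0.628% in H3.3 wild-type cells, 0.814 and 0.837% in H3.3K36M cells and 0.517 and 0.518% in H3.1K36M cells. In tumors 1 to 6 it was 0.281, 0.239, 0.249, 0.167, 0.299 and 0.348%. The control siRNA libraries were thus the lowest of the cultured groups and the H3.3K36M libraries the highest, with no overlap between any of the cultured groups. The tumors overlapped only the control siRNA libraries.

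**Figure D1:**
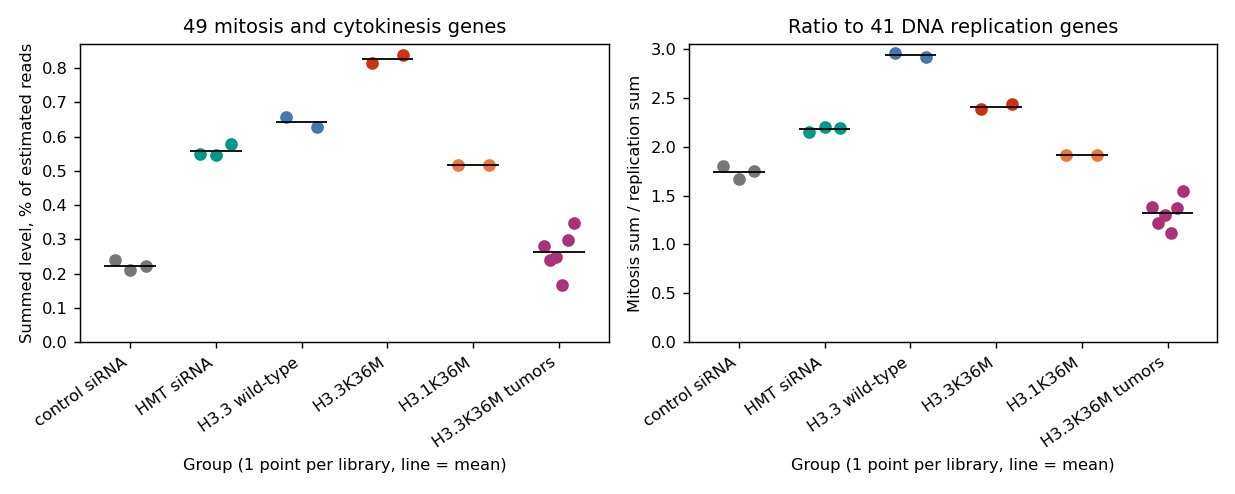
Left, summed level of the 49 genes as a percentage of estimated reads; right, the ratio of their summed level to that of 41 DNA replication genes. Each point is 1 library, lines are group means and both vertical axes start at 0; the H3.3K36M libraries have the highest share (0.814 and 0.837%), but the H3.3 wild-type libraries have the highest ratio (2.96 and 2.92).

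In the 10 cultured libraries of the siRNA table the order of the groups was nearly the same from gene to gene. The 3 control siRNA libraries lay below the other 7 for 49 of 49 members. The group mean was highest in H3.3K36M cells for 43 members, and for 39 both H3.3K36M libraries lay above all others. The order from control siRNA through HMT siRNA and H3.3 wild-type to H3.3K36M held for 34 members, HMT siRNA and H3.3 wild-type cells changed places for 9, and H3.3 wild-type came above H3.3K36M for 6. These counts of order and separation were made for the members only. How often they occur over all genes was not counted, so they are not read as particular to the members. Levels here and below are the authors' median-normalised estimated counts, replicates are given in the order of their numbers, and log2 fold changes carry their standard errors from limma (±). Levels of different genes are not compared, since they are not scaled to length. Comparisons of HMT siRNA and H3.3 wild-type cells with control siRNA cells share the control libraries, and the wild-type libraries serve in several comparisons, so their values are set side by side only.

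**Figure D2:**
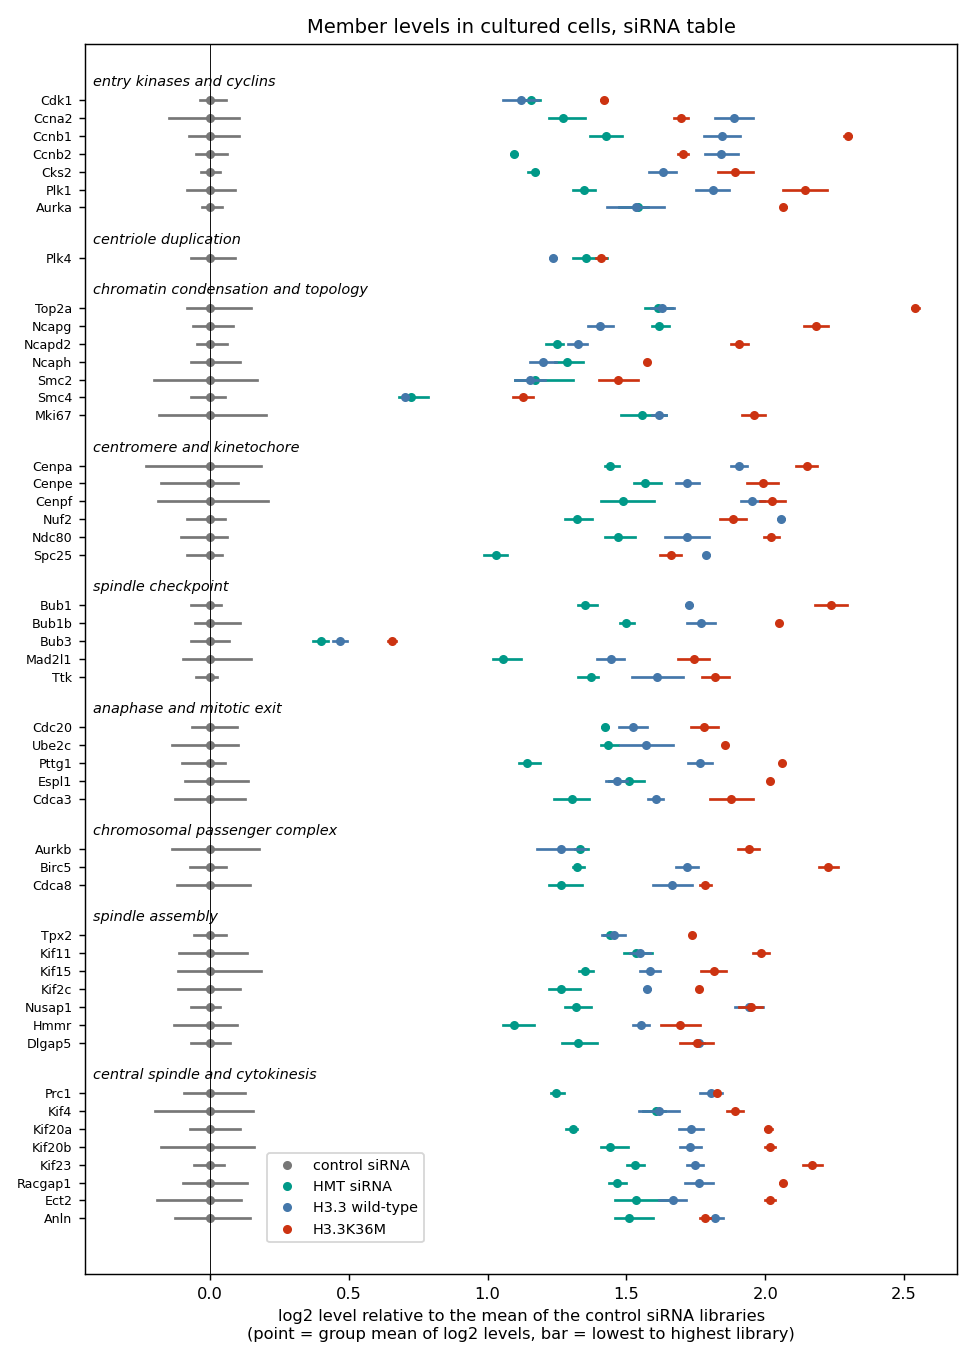
Level of each of the 49 genes in the cultured libraries of the siRNA table, as log2 relative to the mean of the 3 control siRNA libraries, grouped by role. Points are group means of log2 levels and bars run from the lowest to the highest library; no bar of another group reaches the control siRNA bar of the same gene.

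The first comparison, of HMT siRNA with control siRNA cells, asks what follows knockdown of the H3 lysine 36 methyltransferases. All 49 members rose, where 31.9% of the 13186 genes tested rose, and 47 of them rose at least 2-fold, where 5.3% of all genes did. Their median log2 fold change was 1.35, against 0.00 over all genes tested. The values ran from 0.40 ± 0.04 for Bub3 to 1.62 ± 0.05 for Ncapg, and the only other member that rose less than 2-fold was Smc4 (0.72 ± 0.04). The largest adjusted p among the members was 2.24e-06, for Smc2.

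H3.3 wild-type cells were set against control siRNA cells to place the line that serves as the mutant's reference. All 49 members were higher in the wild-type line, where 30.4% of all genes tested were, and 47 were at least 2-fold higher, where 7.33% of all genes were. The median log2 fold change was 1.63, against 0.01 over all genes, and the highest was 2.06 ± 0.05, for Nuf2. These groups differ both in the transgene and in the siRNA, which cannot be told apart. They also differ at Cdkn2a, which encodes the inhibitors p16 and p19ARF: it stood at 178, 186 and 202 in the control siRNA libraries, 333, 308 and 321 in the HMT siRNA libraries, 0 and 1.07 in the wild-type libraries and 0.877 and 0 in the H3.3K36M libraries. Of the 2 siRNA groups, the HMT siRNA libraries had both the higher Cdkn2a level and the higher member levels. Cdkn2b, another inhibitor gene, stood at 229, 253 and 249 in control siRNA and 240, 257 and 234 in HMT siRNA libraries. It was at 3.97 and 8.53 in wild-type and 2.19 and 0 in H3.3K36M libraries. The part of either gene in the members' levels was not tested.

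The comparison of the H3.3K36M line with its wild-type counterpart asks what differs when H3.3 carries K36M. Of the 49 members 38 rose, 3 fell and 8 did not pass the threshold, where 37.5% of all genes tested rose and 33.3% fell. The median log2 fold change was 0.28, against 0.02 over all genes, and no member rose or fell as much as 2-fold, where 12.2% of all genes rose and 8.17% fell by that much. Top2a, Ncapg and Aurkb rose most (0.91 ± 0.06, 0.78 ± 0.06 and 0.67 ± 0.08), and the 3 that fell were Ccna2 (-0.19 ± 0.07), Nuf2 (-0.17 ± 0.06) and Ccnb2 (-0.14 ± 0.05). Leaving out 1 library at a time gave between 29 (without the second wild-type library) and 36 members higher; without the first H3.3K36M or the first wild-type library no member fell (0 in each case). Ccnb2 also did not pass with quantile normalisation (adjusted p = 0.0761) or scaling to the mean total (adjusted p = 0.0675).

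The 2 responses were then compared within the same fit. The difference, H3.3K36M over wild-type minus HMT siRNA over control siRNA, was negative and past the threshold for all 49 members, where 27.4% of all genes tested were lower in this sense. Its median was -1.12, against 0.00 over all genes, and it ranged from -1.55 ± 0.09 for Anln to -0.21 ± 0.06 for Bub3. Each response is taken from its own reference, and those references differ for every member, as given above. Set directly against H3.3 wild-type cells, the HMT siRNA cells had 1 member higher (Ncapg, 0.21 ± 0.05), 29 lower and 19 that did not pass, where 34.1% of all genes were higher and 33.8% lower, with a median of -0.27 against 0.00 over all genes.

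The entry kinases and cyclins held 7 members, all higher in HMT siRNA than in control siRNA cells. In H3.3K36M cells 5 rose and 2 fell. Cdk1, the kinase at the centre of mitotic entry, stood at 1633, 1551 and 1530.3 in the control siRNA libraries, 3468, 3459 and 3582 in the HMT siRNA libraries, 3566 and 3263 in the H3.3 wild-type libraries and 4235 and 4174 in the H3.3K36M libraries. Its wild-type and HMT siRNA libraries overlapped (0.04 ± 0.04 between them, adjusted p = 0.46), and it rose by 0.30 ± 0.05 in H3.3K36M cells (adjusted p = 2.1e-05). Ccnb1, the B-type cyclin that activates Cdk1, stood at 1257, 1107 and 1147 in the control siRNA libraries, 3138, 3018 and 3269 in the HMT siRNA libraries, 4389 and 4015 in the H3.3 wild-type libraries and 5789 and 5690.1 in the H3.3K36M libraries. All 4 groups of Ccnb1 were separate, and it rose by 0.45 ± 0.06 in H3.3K36M cells (adjusted p = 1.45e-06). Ccnb2, the other main B-type cyclin, went the other way in the mutant, from 2628 and 2419.9 in wild-type to 2320.3 and 2264 in H3.3K36M libraries (adjusted p = 0.0271), with 1516, 1505 and 1494 in HMT siRNA and 735, 699 and 679.7 in control siRNA libraries. Ccna2, the A-type cyclin that acts from S phase into early mitosis, stood at 1231, 1079 and 1285 in the control siRNA libraries, 2787, 2826 and 3048 in the HMT siRNA libraries, 4632 and 4213 in the H3.3 wild-type libraries and 3809.9 and 3944 in the H3.3K36M libraries. It was also highest in wild-type cells (adjusted p = 0.0216 for the mutant). The cyclins therefore did not move as a block between the H3.3 lines, though each was lowest in control siRNA and next in HMT siRNA cells.

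Plk1, the polo kinase that acts at entry, at centrosomes and at the furrow, stood at 772, 685 and 725 in the control siRNA libraries, 1798, 1850.1 and 1902 in the HMT siRNA libraries, 2656 and 2446 in the H3.3 wild-type libraries and 3387 and 3041 in the H3.3K36M libraries. It was lower in HMT siRNA than in wild-type cells (-0.46 ± 0.06) and rose in H3.3K36M cells (0.33 ± 0.06, adjusted p = 0.000127). Aurka, the centrosome and spindle pole kinase, stood at 552, 532 and 526 in the control siRNA libraries, 1490.5, 1599 and 1600.3 in the HMT siRNA libraries, 1669 and 1445 in the H3.3 wild-type libraries and 2231 and 2258 in the H3.3K36M libraries. Here the HMT siRNA libraries lay within the wild-type range (0.01 ± 0.06, adjusted p = 0.898), while both H3.3K36M libraries lay above it (0.53 ± 0.06). Cks2, a small partner of the kinase, rose by 1.17 ± 0.04 in HMT siRNA and by 0.26 ± 0.05 in H3.3K36M cells. Plk4, which starts centriole duplication, stood at 433, 388 and 399.5 in the control siRNA libraries, 1016, 1005 and 1094 in the HMT siRNA libraries, 949 and 963 in the H3.3 wild-type libraries and 1064 and 1092 in the H3.3K36M libraries. Its HMT siRNA libraries lay above the wild-type ones without passing the threshold (0.12 ± 0.06, adjusted p = 0.0877).

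All 7 members that condense and untangle chromatin rose in H3.3K36M cells, with a median log2 fold change of 0.43. Between HMT siRNA and wild-type cells 6 of these 7 did not pass the threshold, with a median of 0.02. Top2a, topoisomerase II alpha, stood at 5133, 4378 and 4444 in the control siRNA libraries, 14200.3, 13744 and 14697 in the HMT siRNA libraries, 14775 and 13937 in the H3.3 wild-type libraries and 26734 and 27226 in the H3.3K36M libraries. Its H3.3K36M libraries were far above the rest (adjusted p = 2.4e-10), and its wild-type and HMT siRNA libraries overlapped (-0.01 ± 0.05, adjusted p = 0.828). Ncapg, a subunit of condensin I, stood at 552, 514 and 499.8 in the control siRNA libraries, 1589, 1572 and 1641 in the HMT siRNA libraries, 1426 and 1339 in the H3.3 wild-type libraries and 2301 and 2443 in the H3.3K36M libraries. All 4 groups were apart, and the HMT siRNA libraries lay above the wild-type ones (adjusted p = 0.00174). Ncaph, the kleisin of condensin I, stood at 577, 589.9 and 652 in the control siRNA libraries, 1432, 1455 and 1537 in the HMT siRNA libraries, 1438 and 1347 in the H3.3 wild-type libraries and 1806 and 1803 in the H3.3K36M libraries. Smc4, a core ATPase of both condensins, stood at 3007, 2841 and 3087 in the control siRNA libraries, 4775, 4842 and 5131 in the HMT siRNA libraries, 4870.4 and 4809 in the H3.3 wild-type libraries and 6334 and 6670.3 in the H3.3K36M libraries. Smc4 had a small response to the knockdown beside the other members, and its wild-type and HMT siRNA levels overlapped. Mki67, which encodes the Ki-67 protein of the chromosome surface and is used as a proliferation marker, stood at 4858, 3716 and 4176 in the control siRNA libraries, 12296, 11786 and 13176 in the HMT siRNA libraries, 13194 and 12749 in the H3.3 wild-type libraries and 15957 and 16882 in the H3.3K36M libraries. It rose by 1.55 ± 0.09 in HMT siRNA and by 0.34 ± 0.10 in H3.3K36M cells (adjusted p = 1.5e-07 and 0.0161); the second call was lost with quantile normalisation (adjusted p = 0.0557).

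Among the 6 centromere and kinetochore members, 6 rose with the knockdown, while in H3.3K36M cells 3 rose, 1 fell and 2 did not pass. Cenpa, the histone H3 variant of centromeres, stood at 498, 453 and 374 in the control siRNA libraries, 1175, 1178 and 1217 in the HMT siRNA libraries, 1674 and 1611 in the H3.3 wild-type libraries and 1997 and 1892 in the H3.3K36M libraries. It rose by 0.24 ± 0.09 in H3.3K36M cells (adjusted p = 0.0257). Cenpe, the kinesin that moves chromosomes to the spindle equator, stood at 1074, 886 and 1053 in the control siRNA libraries, 2932, 2886 and 3082 in the HMT siRNA libraries, 3389 and 3204 in the H3.3 wild-type libraries and 3826 and 4131 in the H3.3K36M libraries. Its wild-type libraries lay above the HMT siRNA ones, yet the difference did not pass (-0.15 ± 0.07, adjusted p = 0.0532). Nuf2 and Spc25 belong to the Ndc80 complex, which binds microtubules at the kinetochore. Nuf2 stood at 537, 489 and 528 in the control siRNA libraries, 1280.4, 1255 and 1345 in the HMT siRNA libraries, 2171 and 2138 in the H3.3 wild-type libraries and 1848 and 1974 in the H3.3K36M libraries. Spc25 stood at 389, 356 and 389 in the control siRNA libraries, 793, 771 and 749 in the HMT siRNA libraries, 1296 and 1311 in the H3.3 wild-type libraries and 1163 and 1224 in the H3.3K36M libraries. Both were highest in wild-type cells and separate in all 4 groups; for the mutant Nuf2 fell (-0.17 ± 0.06, adjusted p = 0.0127), whereas Spc25 did not pass (-0.13 ± 0.06, adjusted p = 0.0769). Ndc80, of the same complex, rose instead (0.30 ± 0.07, adjusted p = 0.000487). Cenpf, a large protein of the outer kinetochore, stood at 1309, 995 and 1113 in the control siRNA libraries, 3102, 2999.7 and 3429 in the HMT siRNA libraries, 4507 and 4255 in the H3.3 wild-type libraries and 4465 and 4749 in the H3.3K36M libraries. Its wild-type and H3.3K36M libraries overlapped (0.07 ± 0.11, adjusted p = 0.568).

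The 5 checkpoint members all rose in both comparisons. Bub1b, which encodes the checkpoint protein BUBR1, stood at 993, 886 and 887 in the control siRNA libraries, 2579, 2563 and 2651 in the HMT siRNA libraries, 3246 and 3031 in the H3.3 wild-type libraries and 3825 and 3789.9 in the H3.3K36M libraries. Its 4 groups were separate, with a rise of 0.28 ± 0.06 in H3.3K36M cells (adjusted p = 0.000186). Bub3, a partner of Bub1 and BUBR1 that is expressed through the cell cycle, stood at 2104, 2311 and 2201 in the control siRNA libraries, 2958, 2922 and 2853 in the HMT siRNA libraries, 3103 and 2997 in the H3.3 wild-type libraries and 3438 and 3506 in the H3.3K36M libraries. It was the least changed member in each comparison with control siRNA cells (0.40 ± 0.04 for HMT siRNA and 0.47 ± 0.04 for wild-type), and its wild-type and HMT siRNA levels were close (-0.07 ± 0.04, adjusted p = 0.173). Bub1, a kinase of the same pathway, rose by 1.35 ± 0.05 with the knockdown and by 0.51 ± 0.06 in H3.3K36M cells, Mad2l1, the inhibitor of Cdc20, by 1.05 ± 0.06 and 0.30 ± 0.07, and Ttk, the Mps1 kinase, by 1.37 ± 0.06 and 0.21 ± 0.07.

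The 5 members of anaphase and mitotic exit rose in HMT siRNA and in H3.3K36M cells. Cdc20, the activator of the anaphase-promoting complex, stood at 1208, 1102 and 1079 in the control siRNA libraries, 2999, 3035 and 3045 in the HMT siRNA libraries, 3356 and 3131 in the H3.3 wild-type libraries and 4006 and 3748 in the H3.3K36M libraries. Its wild-type and HMT siRNA cells did not differ past the threshold (-0.10 ± 0.05, adjusted p = 0.0879). Ube2c, the ubiquitin-conjugating enzyme of that complex, stood at 773, 741 and 657 in the control siRNA libraries, 1935, 1918 and 1997 in the HMT siRNA libraries, 2293 and 2007 in the H3.3 wild-type libraries and 2617 and 2604 in the H3.3K36M libraries. Its 3 HMT siRNA libraries all lay below the wild-type ones. Pttg1, securin, which holds separase in check, stood at 329, 329 and 296 in the control siRNA libraries, 686, 691 and 723 in the HMT siRNA libraries, 1111 and 1046 in the H3.3 wild-type libraries and 1326 and 1325 in the H3.3K36M libraries. It differed clearly between HMT siRNA and wild-type cells (-0.62 ± 0.06, adjusted p = 4.43e-08). Espl1, separase itself, did not pass there (0.05 ± 0.06, adjusted p = 0.513). Its levels were 769, 676 and 657 in the control siRNA libraries, 2019.7, 1895 and 2067 in the HMT siRNA libraries, 1983 and 1880.3 in the H3.3 wild-type libraries and 2829 and 2834 in the H3.3K36M libraries. Cdca3, which promotes destruction of the Wee1 kinase, rose by 1.30 ± 0.06 and 0.27 ± 0.07 in the HMT siRNA and H3.3K36M comparisons.

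Of the chromosomal passenger complex, which corrects attachments and later steers cytokinesis, all 3 members rose with the knockdown and 2 of 3 in H3.3K36M cells. Aurkb, its kinase, stood at 555, 479 and 448 in the control siRNA libraries, 1235, 1223 and 1266 in the HMT siRNA libraries, 1256 and 1114 in the H3.3 wild-type libraries and 1939 and 1838 in the H3.3K36M libraries. Its HMT siRNA and wild-type libraries overlapped, and it rose by 0.67 ± 0.08 in H3.3K36M cells (adjusted p = 5.08e-07). Birc5, survivin, rose by 0.51 ± 0.05, and Cdca8, borealin, did not pass (0.12 ± 0.07, adjusted p = 0.145).

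Spindle assembly counted 7 members, all higher after the knockdown, of which 4 rose in H3.3K36M cells and 3 did not pass. Tpx2, which activates Aurora A on microtubules, stood at 2208, 2041 and 2120.5 in the control siRNA libraries, 5757, 5679 and 5835 in the HMT siRNA libraries, 5975 and 5650.0 in the H3.3 wild-type libraries and 7025 and 7103 in the H3.3K36M libraries. Kif11, the kinesin-5 that pushes spindle poles apart, stood at 1147, 966 and 1029 in the control siRNA libraries, 2936, 2995 and 3149 in the HMT siRNA libraries, 3136 and 2979 in the H3.3 wild-type libraries and 4054 and 4215 in the H3.3K36M libraries. In both genes the HMT siRNA libraries lay within or across the wild-type range (-0.01 ± 0.04 and -0.01 ± 0.06), and both rose in the mutant (0.28 ± 0.04 and 0.44 ± 0.06). Nusap1, a microtubule stabiliser, stood at 699, 653 and 702 in the control siRNA libraries, 1660.0, 1685 and 1774 in the HMT siRNA libraries, 2721 and 2539 in the H3.3 wild-type libraries and 2566 and 2713 in the H3.3K36M libraries. Its wild-type and H3.3K36M libraries overlapped (0.01 ± 0.06, adjusted p = 0.933), and it was lower in HMT siRNA than in wild-type cells (-0.62 ± 0.05). Hmmr and Dlgap5, both microtubule binding, were the other members of the role that did not pass in the mutant (0.14 ± 0.07 and -0.01 ± 0.06).

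All 8 members of the central spindle and cytokinesis rose with the knockdown, 6 rose in H3.3K36M cells and 2 did not pass. Prc1, which bundles the central spindle, stood at 1489, 1279 and 1338 in the control siRNA libraries, 3218, 3198 and 3306 in the HMT siRNA libraries, 4899 and 4643 in the H3.3 wild-type libraries and 4819.9 and 4864 in the H3.3K36M libraries. Anln, anillin, the scaffold of the contractile ring, stood at 3009, 2492 and 2687 in the control siRNA libraries, 7526, 7488 and 8231 in the HMT siRNA libraries, 9796 and 9430.0 in the H3.3 wild-type libraries and 9252 and 9476 in the H3.3K36M libraries. Neither passed in the mutant (0.02 ± 0.06, adjusted p = 0.744, and -0.04 ± 0.07, adjusted p = 0.633), and both were lower in HMT siRNA than in wild-type cells (-0.56 ± 0.05 and -0.31 ± 0.06). Kif4, the kinesin that works with Prc1, stood at 730.0, 572 and 676 in the control siRNA libraries, 2016, 1933 and 2041 in the HMT siRNA libraries, 2118 and 1913 in the H3.3 wild-type libraries and 2384 and 2480.4 in the H3.3K36M libraries. Its HMT siRNA and wild-type libraries overlapped. The centralspindlin genes both rose in H3.3K36M cells, Kif23 by 0.42 ± 0.05 and Racgap1 by 0.30 ± 0.06, as did Ect2, the exchange factor that centralspindlin recruits, by 0.35 ± 0.09. Kif20a and Kif20b, 2 kinesins of late mitosis, rose by 0.28 ± 0.05 and 0.29 ± 0.08.

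H3.1K36M cells were compared with both H3.3 lines in the 6 cultured libraries of the table that also holds the tumors. The samples hold no H3.1 wild-type line. Against H3.3 wild-type cells the histone variant, the substitution and the line therefore differ together and cannot be told apart. Against H3.3K36M cells the variant and the line differ together. Against H3.3 wild-type cells 3 members rose, 35 fell and 11 did not pass, where 41.1% of the 13404 genes tested rose and 38.4% fell. The median log2 fold change was -0.33, against 0.02 over all genes. Against H3.3K36M cells 48 members fell and 1 rose, where 32.8% of all genes fell and 35.4% rose, with a median of -0.55 against 0.01. Scaling each library to the mean total changed the balance over all genes in that comparison, where the higher share of the called genes went from 51.9 to 40.4%; 48 members were lower under both scalings. These comparisons share the H3.1K36M libraries.

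The centriole kinase gene Plk4 was the member above both H3.3 lines. It was at 1588 and 1551 in H3.1K36M, 1277 and 1304 in wild-type and 1402 and 1442 in H3.3K36M libraries, all 3 groups separate with H3.1K36M on top (0.28 ± 0.04 and 0.14 ± 0.04, adjusted p = 3.35e-05 and 0.0105). The call against H3.3K36M cells was lost when the first library of either line was left out, and with quantile normalisation or scaling to the mean total (0 members higher in each case). Ncapg was at 2395 and 2479.5 in H3.1K36M, 1918 and 1813 in wild-type and 3034 and 3225 in H3.3K36M libraries. Bub1 was at 2714 and 2766 in H3.1K36M, 2439 and 2417 in wild-type and 3251 and 3524 in H3.3K36M libraries. These were the other members above wild-type cells (0.39 ± 0.04 and 0.17 ± 0.04), each still under its H3.3K36M level.

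The lowest values against wild-type cells were in a cyclin and microtubule proteins. Ccnb2 was at 1606 and 1598 in H3.1K36M, 3536 and 3276 in wild-type and 3059 and 2988 in H3.3K36M libraries (-1.09 ± 0.04 and -0.92 ± 0.04). Nusap1 was at 1718 and 1734 in H3.1K36M, 3661 and 3437 in wild-type and 3383 and 3582 in H3.3K36M libraries (-1.04 ± 0.04 and -1.01 ± 0.04). Prc1 was at 3629.6 and 3607 in H3.1K36M, 6592 and 6286 in wild-type and 6354 and 6420.2 in H3.3K36M libraries (-0.83 ± 0.03 and -0.82 ± 0.03). In these 3 genes both H3.1K36M libraries were below all 4 H3.3 libraries. Birc5, at 2904 and 2909 against 5685 and 5966 in H3.3K36M cells, and Cenpa, at 1326 and 1304 against 2632 and 2497, were among the 3 members furthest below that line (adjusted p = 1.18e-11 and 7.59e-11); their wild-type libraries were at 4290.1 and 4083 and at 2252 and 2182. Mad2l1 (2079 and 2067 against 2293 and 2479) and Bub3 (3754 and 3905 against 4533 and 4628) were the nearest to it of those that fell (-0.20 ± 0.05 and -0.26 ± 0.04).

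By role, the kinetochore members fell for 6 of 6 against wild-type cells (median -0.53), entry kinases and cyclins for 6 of 7, spindle assembly for 6 of 7 and the central spindle for 6 of 8. Chromatin condensation and topology stood nearest to wild-type cells by its median, with 1 of 7 higher, 2 lower and 4 not past the threshold (median -0.01). Top2a was at 19227 and 19234 in H3.1K36M and 19880.2 and 18868 in wild-type libraries (-0.01 ± 0.03, adjusted p = 0.771), with overlapping values, against 35244 and 35937 in H3.3K36M libraries (-0.89 ± 0.03). Mki67, at 13805 and 13536 in H3.1K36M, 17753 and 17259 in wild-type and 21037 and 22283 in H3.3K36M libraries, fell in both comparisons (-0.36 ± 0.03 and -0.66 ± 0.03). Aurka was at 2378 and 2208 in H3.1K36M, 2246 and 1956 in wild-type and 2941 and 2981 in H3.3K36M libraries, and it did not pass against wild-type cells (0.13 ± 0.06, adjusted p = 0.0503). Aurkb (1564 and 1581 against 1689.8 and 1509), Espl1 (2489 and 2471 against 2668 and 2546) and Tpx2 (7675 and 7548 against 8039 and 7649) did not pass either; Aurkb and Tpx2 overlapped, and both H3.1K36M libraries of Espl1 lay below the wild-type ones.

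Cdk1, at 3945 and 3934 in H3.1K36M and 4798 and 4417 in wild-type libraries, fell (-0.22 ± 0.04). Ccnb1 (4406 and 4603 against 5906 and 5436), Plk1 (2244 and 2338 against 3574 and 3311) and Bub1b (3347 and 3195 against 4367 and 4104) were also lower, without overlap (-0.33 ± 0.04, -0.59 ± 0.05 and -0.37 ± 0.04). The same held for Cdc20 (3309 and 3327 against 4515 and 4239), Ube2c (2094 and 2214 against 3085 and 2717) and Pttg1 (1029 and 1021 against 1495 and 1416). These 3 genes act at anaphase, and they fell against wild-type cells by similar amounts (-0.40 ± 0.04, -0.43 ± 0.05 and -0.50 ± 0.05). Cenpe (3836 and 3729 against 4561 and 4337), Kif11 (3359 and 3366 against 4219 and 4033) and Anln (10118 and 9839 against 13181 and 12766) fell too (-0.23 ± 0.04, -0.29 ± 0.04 and -0.38 ± 0.03).

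DNA replication genes, which peak earlier in the cycle, were listed for comparison, and 41 of them were in the tables. In H3.3K36M cells 39 of 41 rose against wild-type cells and none fell, with a median of 0.60, above the members' 0.28; Mcm2, a subunit of the replicative helicase, changed by 1.16 ± 0.05. In H3.1K36M cells, where 35 of 49 mitosis genes fell, 32 of 41 replication genes rose and 2 fell, with a median of 0.38. HMT siRNA against wild-type cells had 26 replication genes higher and none lower (median 0.27), and 29 mitosis genes lower and 1 higher. These comparisons share the wild-type libraries, which had the highest ratio of mitosis to replication levels (below), so their directions are not independent of each other. Against control siRNA cells both lists were higher, with medians of 1.14 for replication and 1.35 for mitosis genes in HMT siRNA cells and 0.81 and 1.63 in wild-type cells. The ratio of the summed levels put numbers on this within each library: it was 2.96 and 2.92 in wild-type, 2.39 and 2.44 in H3.3K36M, 1.92 and 1.92 in H3.1K36M, 2.15, 2.21 and 2.19 in HMT siRNA and 1.80, 1.67 and 1.76 in control siRNA libraries. No cultured group overlapped another in this ratio, wild-type cells had the most mitosis RNA per replication RNA, and the order differs from that of the members' share of reads.

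**Figure D3:**
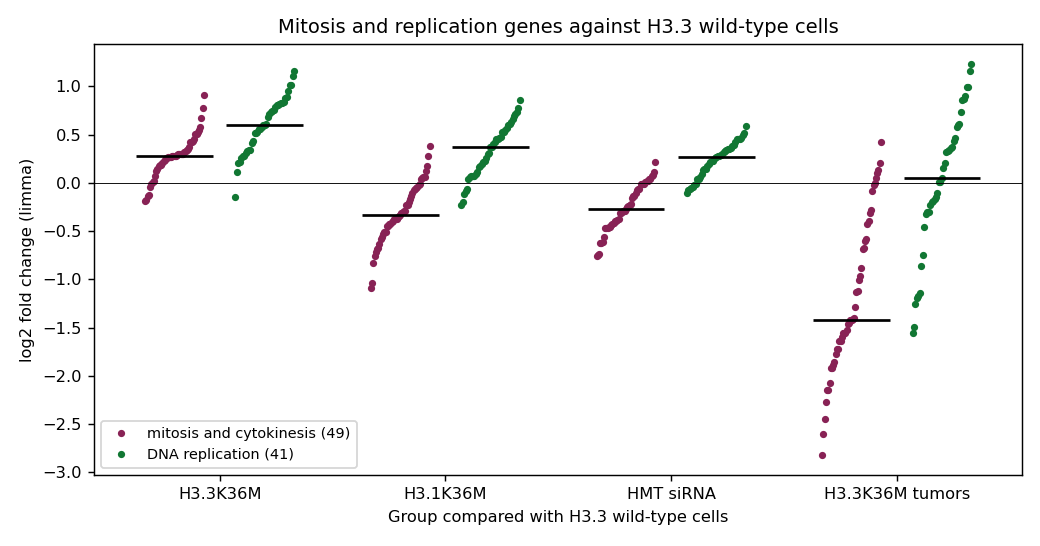
log2 fold changes of the 49 mitosis and cytokinesis genes and of 41 DNA replication genes in 4 groups, each against H3.3 wild-type cells. Each point is 1 gene, sorted by value, and bars are medians; in H3.1K36M and HMT siRNA cells the mitosis medians are below 0 (-0.33 and -0.27) and the replication medians above it (0.38 and 0.27). The H3.3 wild-type libraries are the shared reference, and the fold changes come from different tables.

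Other mitosis genes, from lists beside the 49, were counted in the same fits. Of 27 other kinetochore and centromere genes, all rose in HMT siRNA against control siRNA cells (median 0.97), and 19 rose and none fell in H3.3K36M against wild-type cells (median 0.33). Of 31 other mitotic kinesins and spindle genes, 30 rose and 1 fell with the knockdown (median 1.30) and 20 rose and none fell in the mutant (median 0.24). For the anaphase-promoting complex and its partners the counts were mixed, with 9 of 15 higher and 3 lower in HMT siRNA cells (median 0.18). The largest value there belonged to Fbxo5, which encodes the complex's inhibitor EMI1 (1.48 ± 0.06). Cohesin genes rose for 11 of 14 with the knockdown (median 0.39), led by the acetyltransferase Esco2 (1.77 ± 0.06) and the protector of centromeric cohesion Sgol1 (1.65 ± 0.07). Entry switches and regulators of mitotic transcription rose for 20 of 28 and fell for 1, and the transcription factor E2f2 changed by 2.26 ± 0.12.

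H3.3K36M tumors were compared with the H3.3K36M cells that were injected. Of the 49 members 42 fell, none rose and 7 did not pass, where 34.2% of the 14842 genes tested fell and 41% rose, and 33 fell at least 2-fold, where 20.7% of all genes did. The median log2 fold change was -1.56, against 0.14 over all genes. Against H3.3 wild-type cells 37 members were lower, 1 higher and 11 not past the threshold, where 35.3% of all genes were lower and 43.8% higher, with a median of -1.42 against 0.19. The 2 comparisons share the tumors. Scaling moved the median over all genes in the first of them from 0.14 to -0.12 with quantile normalisation and to -0.06 with scaling to the total, and the members' medians were then -1.58 and -1.76.

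The tumors hold cells of the host, and both host and graft are mouse, so their RNA is counted together. All 15 macrophage markers were higher in the tumors, with a summed level of 276292 to 419726 in the tumors and 249 to 697 in the cultured libraries. Of 13 endothelial markers 11 were higher (21862 to 37510 against 1172 to 2889), of 10 skeletal muscle markers 8 of 9 tested (1776 to 26387 against 239 to 564), and keratinocyte markers ranged from 229 to 32304 (294 to 3240 in culture); no marker of these 4 lists was at 0 in every library. The sum of the 15 mesenchymal markers was 539656 to 614125 in tumors and 1138610 and 1082600 in H3.3K36M cells. The part of the host cells in the members' levels was not tested. Cdkn2a, at 1.16 and 0 in H3.3K36M cells, was at 81.1, 100.4, 97.9, 74.9, 109.7 and 33.3 in tumors 1 to 6.

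**Figure D4:**
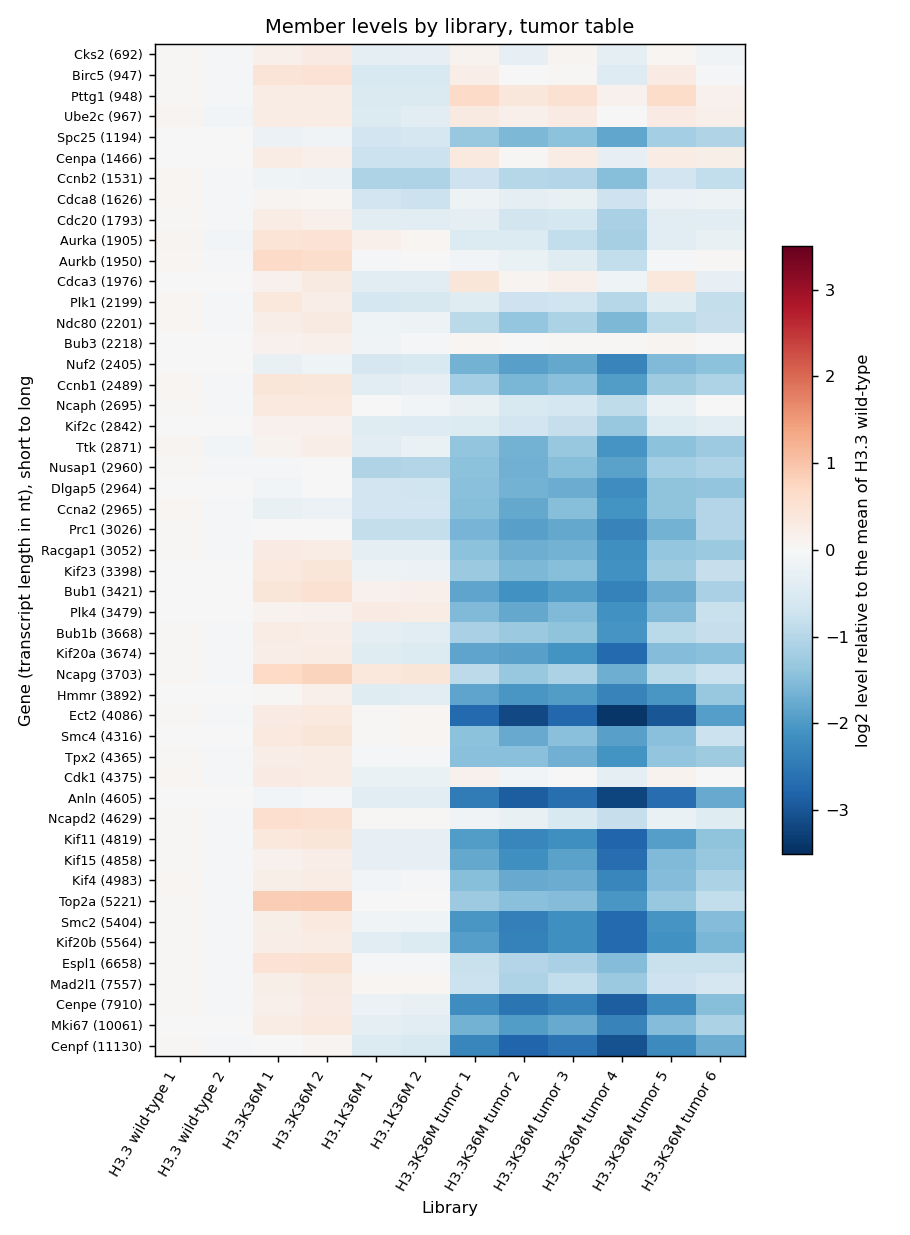
Level of each of the 49 genes in the 12 libraries of the table with the tumors, as log2 relative to the mean of the 2 H3.3 wild-type libraries. Rows run from short to long transcripts (length in nucleotides in brackets) and colours from blue (lower) to red (higher); the tumor columns are pale for most short transcripts and dark blue for most long ones, and tumor 4 is the lowest for 47 members.

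Genes of the central spindle and cytokinesis fell most, 8 of 8 with a median of -2.02 against H3.3K36M cells. Ect2 ranged from 244 to 678 with a median of 353 in the 6 tumors, against 3176 and 3258 in H3.3K36M and 2658 and 2502 in wild-type libraries (-3.14 ± 0.32 and -2.82 ± 0.32, adjusted p = 2.08e-05 and 3.29e-05). Anln ranged from 1398 to 3786 with a median of 2064, against 12197 and 12508 in H3.3K36M and 13181 and 12766 in wild-type libraries (-2.53 ± 0.30 and -2.60 ± 0.30). Prc1 ranged from 1281 to 3191 with a median of 1939.9, against 6354 and 6420.2 in H3.3K36M and 6592 and 6286 in wild-type libraries (-1.71 ± 0.27 and -1.72 ± 0.27). In these 3 furrow and midzone genes every tumor lay below every cultured library of the H3.3 lines.

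Spindle assembly and chromatin condensation followed, each with 7 of 7 lower (medians -1.80 and -1.87). Kif11 ranged from 607 to 1549.8 with a median of 1000.2, against 5345 and 5564 in H3.3K36M libraries (-2.48 ± 0.28), and Tpx2 from 1827 to 3337 with a median of 2834, against 9261 and 9376 (-1.80 ± 0.20). Top2a ranged from 4742 to 10573 with a median of 7441, against 35244 and 35937 (-2.29 ± 0.24). Ncapg ranged from 567 to 1103 with a median of 916, against 3034 and 3225 (-1.87 ± 0.22), and the proliferation marker Mki67 from 3444 to 8103 with a median of 5390.0, against 21037 and 22283 (-2.03 ± 0.26, adjusted p = 9.62e-05). None of these overlapped.

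At the kinetochore 5 of 6 members fell. Cenpe ranged from 603 to 1585 with a median of 922, against 5044 and 5453 in H3.3K36M libraries (-2.51 ± 0.29), and Cenpf from 711 to 1758 with a median of 1096, against 5887 and 6269 (-2.48 ± 0.29 here and -2.44 ± 0.29 against wild-type cells). Cenpa ranged from 1812 to 2797 with a median of 2592, against 2632 and 2497, so the tumors spread over the cultured values and the difference did not pass (-0.08 ± 0.16, adjusted p = 0.668). Of the 5 checkpoint members 4 fell. Bub1b ranged from 1004 to 2409.6 with a median of 1813, against 5042 and 5003 (-1.53 ± 0.28), whereas Bub3 ranged only from 4165 to 4385 with a median of 4231, just under 4533 and 4628, and did not pass (-0.11 ± 0.07, adjusted p = 0.199). With an adjustment for transcript length (given below) Cenpa was at -0.79 and Bub3 at -0.42, both past the threshold. Mad2l1 of the checkpoint, which fell before it, then did not pass (-0.17).

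Among entry kinases and cyclins 5 of 7 fell. Ccnb1 ranged from 1450.1 to 2663 with a median of 2223, against 7631 and 7511 (-1.84 ± 0.21), Plk1 from 1726 to 2582 with a median of 2105, against 4465 and 4014 (-0.98 ± 0.16), and Aurka from 928 to 1763 with a median of 1504, against 2941 and 2981 (-1.10 ± 0.22). Cdk1 itself ranged from 3674 to 5065 with a median of 4619.8, against 5584 and 5509; all 6 tumors were lower, yet the difference did not pass (-0.29 ± 0.12, adjusted p = 0.0556), and against wild-type cells it was near 0 (-0.02 ± 0.13, adjusted p = 0.867). Cks2 did not pass either (-0.31 ± 0.15, adjusted p = 0.0803). The 3 members of the chromosomal passenger complex fell: Aurkb ranged from 882 to 1634 with a median of 1419, against 2556 and 2426 (-0.92 ± 0.21), with Birc5 at -0.47 ± 0.17 and Cdca8 at -0.40 ± 0.15, and none of the 3 passed against wild-type cells. These values moved with an adjustment for transcript length (given below): the 3 were then at -1.36, -1.55 and -1.02 against H3.3K36M cells, and all passed against wild-type cells (-0.78 for Aurkb, -1.23 for Birc5 and -1.02 for Cdca8).

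Anaphase and mitotic exit was the role with the smallest share of its members called, 2 lower and 3 not past the threshold. Pttg1 ranged from 1618 to 2298 with a median of 2009, against 1749 and 1749 in H3.3K36M and 1495 and 1416 in wild-type libraries. The tumors overlapped the H3.3K36M libraries (0.16 ± 0.16, adjusted p = 0.374) and lay above the wild-type ones (0.42 ± 0.16, adjusted p = 0.0317), the 1 member called higher; that call was lost without tumor 1, 3 or 5, without either wild-type library, and with scaling to the mean total (0 members higher in each case). Ube2c ranged from 2865 to 3576 with a median of 3414, against 3450.4 and 3438 (-0.04 ± 0.10, adjusted p = 0.704), and Cdca3 did not pass (-0.14 ± 0.19). Cdc20 ranged from 2006 to 3525 with a median of 3096, against 5281 and 4947 (-0.80 ± 0.19), and Espl1 from 906 to 1519 with a median of 1390.5, against 3729 and 3741 (-1.53 ± 0.19); both fell without overlap.

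Of the 7 members that did not pass the threshold against H3.3K36M cells, 5 have an annotated transcript under 2000 nucleotides: Cks2 (692), Pttg1 (948), Ube2c (967), Cenpa (1466) and Cdca3 (1976). Lengths were taken from GENCODE M21 (the longest principal coding transcript), which may not be the models the authors counted on. Across the 49 members the fold change against H3.3K36M cells had a Spearman rho of -0.75 with length, as a description over genes of the same 8 libraries, and across all genes with a length it was -0.39. The 12 members under 2000 nucleotides had a median log2 fold change of -0.44, against 0.86 for all genes of that length, the 20 from 2000 to 4000 had -1.64, against 0.11, and the 17 over 4000 had -2.08, against -0.63. The members' median minus that of all genes was thus -1.30, -1.75 and -1.46 in the 3 classes. In the 7 comparisons of cultured cells the rho over all genes lay between -0.07 and 0.02. Over the members it lay there between -0.20 and 0.41, highest in H3.1K36M against wild-type cells. In that comparison the members' medians in the 3 classes were -0.47, -0.36 and -0.13, against 0.10, 0.01 and -0.003 over all genes. No length adjustment was made for the cultured comparisons. GC content moved with the tumor change as well (rho 0.61 over the members and 0.36 over all genes). The parts of length and GC content in the members' change in tumors cannot be told apart.

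Once a trend on length was removed from each library, a choice made after seeing the data, 47 members were lower against H3.3K36M cells and none higher (median -1.52), and against wild-type cells 43 were lower and 1, Cdk1, higher (0.32, adjusted p = 0.0426). Pttg1 then changed sides, to -0.91 and -0.81 in the 2 comparisons, and the genes not past the threshold against H3.3K36M cells were Cdk1 and Mad2l1, both with long annotated transcripts (4375 and 7557 nucleotides). Against wild-type cells the calls of Mki67, Mad2l1 and Espl1 were lost (-0.36, 0.18 and -0.11 after adjustment). In size, 29 of the 49 changes against H3.3K36M cells became smaller. Among long transcripts, Mki67 went from -2.03 to -0.79, Cenpf from -2.48 to -1.16, Cenpe from -2.51 to -1.49 and Top2a from -2.29 to -1.73. Ect2 (-2.86), Anln (-2.13), Kif11 (-2.02) and Prc1 (-1.68) moved less, and all of these remained past the threshold. By role, the central spindle and cytokinesis had the lowest median before and after (-2.02 and -1.80), whereas that of anaphase and mitotic exit went from -0.14 to -0.91, with 5 of 5 members lower, and that of the passenger complex from -0.47 to -1.36.

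**Figure D5:**
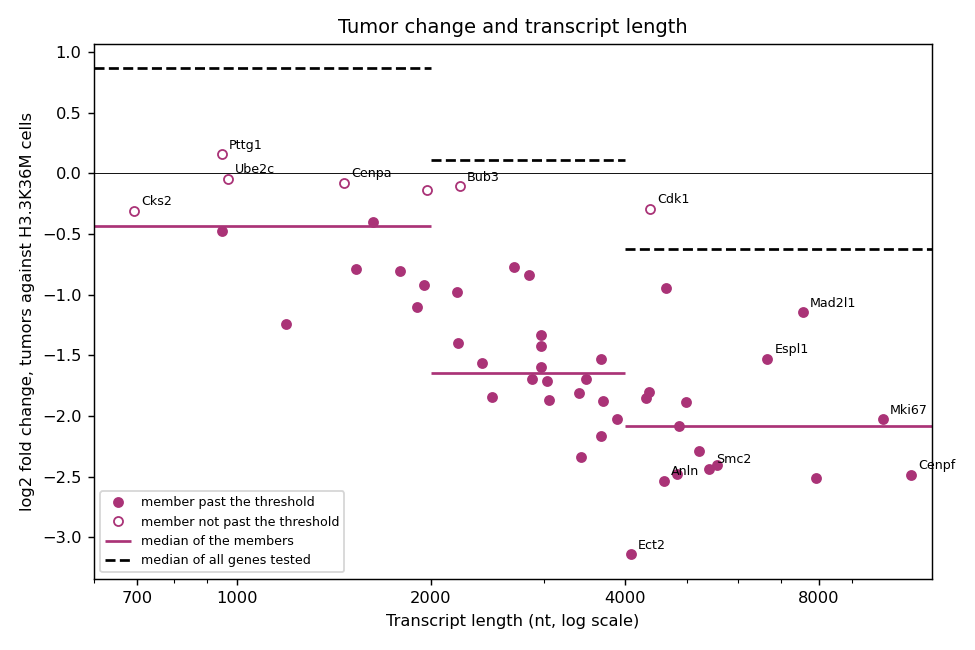
log2 fold change of the tumors against H3.3K36M cells for each of the 49 genes (points, filled where past the threshold) by transcript length in nucleotides, on a log axis. Solid lines are medians of the members and dashed lines medians of all genes tested in 3 length classes; the members' medians (-0.44, -1.64 and -2.08) lie below those of all genes (0.86, 0.11 and -0.63) in each class.

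The tumors also differed among themselves. Tumor 4 had the lowest level for 47 of the 49 members, and tumor 6 had the highest for 35, tumor 1 for 11 and tumor 5 for 3. The lowest and highest tumors were not counted over all genes, so this order is not read as particular to the members. The ratio of the highest to the lowest tumor ran from 1.05 for Bub3 to 2.78 for Ect2, with a median of 1.84. The ratio of summed mitosis to replication levels was 1.39, 1.22, 1.30, 1.11, 1.37 and 1.55 in tumors 1 to 6, all below every cultured library. These sums were not adjusted for transcript length, and its part in the ratio was not tested. Tumor 4 also had the highest macrophage sum (419726) and tumor 6 the lowest (276292), with the highest muscle sum (26387). The endothelial sum ran the other way, lowest in tumor 4 (21862) and highest in tumor 6 (37510). The sum of lymphocyte and NK cell markers was highest in tumor 6 (11061). Those of red cell (19477) and mesenchymal markers (614125) were highest in tumor 4. The relation to transcript length was strongest in tumor 4 and weakest in tumor 6. Against the mean of the H3.3K36M cells, rho over all genes was -0.399 and -0.303, with the other 4 tumors between -0.394 and -0.383. The part of these measures in the order was not tested. Without tumor 4 the median against H3.3K36M cells was -1.46, with 43 members lower. With all 6 tumors against H3.3K36M cells, 25 of 41 replication genes fell and 4 rose (median -0.51). In that fit 28 of 31 other kinesins and spindle genes fell (median -1.47) and 13 of 14 cohesin genes (median -1.81).

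Some of these values are less certain than their replicates show, because reads could be shared. GENCODE lists a pseudogene copy named for Ccnb1, Ccnb2 and Kif4. Exons of Ccna2, Ncapg, Cdc20, Ube2c, Cdca8, Nusap1, Prc1, Kif4 and Kif20a overlap a gene on the other strand that is also in the tables, and whether the counting used strand is not given in the sources used here.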

How the data were processed

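RNA had been extracted with Trizol and sequenced from TruSeq libraries, per the labels' protocols. The submitters' processing notes name Bowtie 1.0.0, RSEM 1.2.12 and mm9. The authors deposited per-gene signal tables of RSEM estimated counts with a median normalisation whose method is not given in the sources used here, per the labels. Tables were scaled separately, so comparisons were made within a table. The commonest low value of a library was taken as 1 estimated read, which gave the depths. Between 33.2 and 53.8% of values were then whole (within 0.005), so the signal was not treated as counts. The members and gene lists were chosen with earlier results of these data known.

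Values were taken as log2(value + 1) after keeping genes at 10 or more in as many libraries as the smallest group, and fitted with limma 3.58.1 (R 4.3.3; trended, robust eBayes). Fold changes are on that scale, p-values were adjusted by Benjamini-Hochberg over all genes tested, and the threshold was 0.05. The siRNA table gave 1 fit of 10 libraries, the table with tumors 1 fit of 6 cultured libraries and 2 of 8 libraries each. The scripts were tested on simulated data. Named genes were 20 set by role and, in each comparison, the 3 members with the highest and the 3 with the lowest fold change; for other lists the 2 of largest absolute change. Values of single genes outside this rule were chosen after they were seen. Alternatives were other pseudocounts, filters, scalings, eBayes settings, tables and blocks, and each library left out. Coordinates come from GRCm38.p6 (RefSeq) and no sequence was read from mm9. Same-numbered replicates were not treated as pairs.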

Additional observations from a re-analysis of the deposited data

Results flagged for a closer look

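Among the 49 members, the levels of the 6 tumors were checked for a value far from the rest, and Cdca8, the borealin gene of the chromosomal passenger complex, had one. Its level was 1515 in tumor 4 and between 1979 and 2237 in the other 5, so that on the log2 scale the gap to the nearest tumor was 0.686 of the whole range, above Dixon's critical value for 6 samples. Chance gives such a value in about 1 of 20 groups, and 1 of 49 was found. Tumor 4 was also the lowest for 47 members, a count that was not made over all genes.

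The response of the members differed between the 2 settings in which H3 lysine 36 methylation was targeted. For 49 of 49 members the change in H3.3K36M over H3.3 wild-type cells was smaller than that in HMT siRNA over control siRNA cells, by the test of the difference itself (limma, adjusted p under 0.05), with a median of -1.12. The part of the reference groups, which differ from each other for all 49 members, was not tested.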

How the results depend on the processing

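Besides the reported values, 3718 results kept their side of the threshold or their size. Of the rest, 32 were past the threshold only under the alternative, 40 were lost, 29 moved and 6 reversed. A gene that changed sign without passing the threshold in either setting was counted among the 3718. Single genes were counted only where the rule for named genes took them in that comparison. Leaving out 1 library gave 29 to 36 members higher and 0 to 3 lower in H3.3K36M against wild-type cells, medians of 1.59 to 1.70 for wild-type against control siRNA cells, -0.39 to -0.27 for H3.1K36M against wild-type cells and -0.59 to -0.53 against H3.3K36M cells, 0 to 1 members higher in the last comparison, and 0 to 2 members higher in tumors against wild-type cells. Quantile normalisation gave 2 members higher in HMT siRNA against wild-type cells, as did fitting only the groups compared, and in H3.1K36M against H3.3K36M cells 0 higher and a median of -0.61. Scaling to the mean total gave a median of -0.36 for H3.1K36M against wild-type cells, 0 higher and -0.63 against H3.3K36M cells, and 0 higher in tumors against wild-type cells. Cenpa was not past the threshold in H3.3K36M cells without the filter on low values (0.24, adjusted p = 0.0504) or with plain eBayes (0.24, adjusted p = 0.0989), nor was Ccna2 with plain eBayes (-0.19, adjusted p = 0.0984). Adjusting for length, chosen after seeing the data, changed the sign of 2 members in tumors against H3.3K36M cells, Pttg1 (-0.91) and Cdk1 (0.06), and of 9 against wild-type cells: Cdk1 (0.32), Bub3 (-0.32), Cenpa (-0.68), Pttg1 (-0.81), Ube2c (-1.01), Birc5 (-1.23), Mad2l1 (0.18), Ncapd2 (0.01) and Cdca3 (-0.39), the last 2 not past the threshold either way. The cause of the other moves was not tested.

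With a replicate block, 39 members rose and 3 fell in H3.3K36M against wild-type cells, 49 rose in HMT siRNA against control siRNA cells, and the difference of responses kept 49 lower. The block gave 1 member higher and 43 lower in tumors against H3.3K36M cells and 3 higher and 40 lower against wild-type cells. Deviations of same-numbered HMT and control siRNA libraries correlated at 0.08, 0.10 and 0.11, the highest for each number, which is a hint from the data only; for the H3.3 lines the value was -0.00. The fit of only the groups compared was not run for the difference of responses, which needs all 4 groups, or for the tumors, where it is the reported fit. Depth did not limit the members, which had at least 171 estimated reads in each library.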

Other observations

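Of 8 cyclins and kinases of G1, the phase before DNA replication, 7 rose and 1 fell in HMT siRNA against control siRNA cells, and 5 rose and none fell in H3.3K36M against wild-type cells. In H3.3 wild-type against control siRNA cells 4 were higher and 4 lower, where all 49 mitosis genes were higher. In H3.1K36M and in HMT siRNA against wild-type cells 5 and 6 were higher and none lower. Ccnd2, the D-type cyclin that starts G1 progression, was lower in H3.3 wild-type than in control siRNA cells (-1.09 ± 0.04). It was higher in H3.3K36M (1.44 ± 0.04), H3.1K36M (1.91 ± 0.03) and HMT siRNA cells (1.83 ± 0.04) than in wild-type cells, and lower in tumors than in H3.3K36M cells (-2.67 ± 0.30). These comparisons share the wild-type or the H3.3K36M libraries. Of 11 cell cycle inhibitors tested, 4 were higher and 3 lower in H3.3K36M than in wild-type cells, where 37.5% of all genes were higher and 33.3% lower. In H3.1K36M against wild-type cells 5 of 9 were higher and 3 lower, where 41.1% and 38.4% of all genes were. One of the list, Gas1, linked to growth arrest, was lower in H3.3K36M than in wild-type cells (-1.38 ± 0.04). It was lower again in H3.1K36M cells (-3.52 ± 0.04 against wild-type and -2.10 ± 0.04 against H3.3K36M cells). Btg1, of the same list, was higher in H3.1K36M than in wild-type cells (1.01 ± 0.04).

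In the tumors, 17 of 27 other kinetochore and centromere genes were lower and 1 higher than in H3.3K36M cells (median -0.72), led by Casc5, the outer kinetochore scaffold (-3.94 ± 0.50). The anaphase-promoting complex had 5 of 15 genes higher and 6 lower (median 0.11). Over all genes tested in that comparison 41% were higher and 34.2% lower (median 0.14), so the complex stood near the rest.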
